A study of Mus musculus with 6 samples.

Results

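The genes of the respiratory chain and of the ATP synthase were followed in RAW264.7 cells. This mouse line of macrophages turns into osteoclasts, which are the bone-resorbing cells, under the cytokine RANKL. Members were the rows of the deposited table that carry the KEGG pathway of oxidative phosphorylation (ko00190) or a symbol starting with mt-, the prefix of genes on the mitochondrial genome. Rows of the vacuolar proton pump, which share that pathway entry, were left out (symbols starting with Atp6v or Atp6ap, and Tcirg1). This gave 98 members of 11031 rows. Of these, 85 are nuclear genes and 13 are mitochondrially encoded, and 77 of the nuclear genes encode subunits of complexes I to V. The other 8 nuclear members are the assembly factors Cox10, Cox11, Cox15 and Cox17, the phosphatases Ppa1, Ppa2 and Lhpp, and Cox5b-ps, a near copy of Cox5b.

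There were 6 samples of this 1 line, namely 3 untreated controls (Ctrl) and 3 samples given RANKL, and all were collected at day 3. RNA was selected by poly(A) tail and made into strand-specific paired-end Illumina libraries. No source says that replicates were cultured separately, and p-values then measure only the spread between these samples, which may be technical. The table names its libraries by letters found in none of the sample labels. Those columns entered no step, so values per sample and depth were not analysed here.

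Each value below is therefore the authors' own, as deposited: the log2 fold change between the 2 conditions, its Benjamini-Hochberg adjusted p over all rows, and a mean expression level over all libraries, FPKM on a log scale that was read as log2. The header does not name the numerator of the fold change, so values are said to lie on the positive or the negative side. The osteoclast genes Acp5, which encodes tartrate-resistant acid phosphatase, and Ctsk, which encodes cathepsin K, lay on the positive side at 10.22 and 8.78. All 10 osteoclast markers examined did so, and of 8 macrophage markers with a row 7 lay on the negative side and 1 (Cd68, 0.28) on the positive side. None of 7 T or B cell markers and none of 5 epithelial markers had a row, and of 7 fibroblast or osteoblast markers only Runx2 did (-1.24). A standard error (SE) was derived for each fold change from its deposited p-value, on the assumption of a 2-sided Wald test, and the 95% intervals below rest on it. In bulk RNA, a change in the share of cells of a type and a change in RNA per cell cannot be told apart.

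As background, electrons from NADH enter the chain at complex I and those from succinate at complex II. They pass through ubiquinone to complex III, through cytochrome c to complex IV, and there reduce oxygen. Complexes I, III and IV pump protons, and complex V, the ATP synthase, uses the gradient to make ATP. All complexes but complex II combine subunits from both genomes, and osteoclasts are known as cells rich in mitochondria.

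Across the whole table, 77.5% of rows passed an adjusted p of 0.05, 39.3% of rows on the positive side and 38.1% on the negative side, and the median fold change was 0.00 on the log2 scale. Of the 98 members, 81 passed on the positive side, 5 passed on the negative side and 12 did not pass. The nuclear members account for 76 of the positive calls and 1 negative call, with 8 not passing. The 13 mitochondrially encoded members divided into 5 positive, 4 negative and 4 not passing. For comparison, among the 4778 rows within the expression range of the nuclear subunits, 43.1% passed on the positive side and 38.1% on the negative side. The median log2 fold change was 0.44 for the 77 nuclear subunits (quartiles 0.25 and 0.53) and 0.01 for the 13 mitochondrially encoded members (quartiles -0.11 and 0.29).

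Single changes were small. None of the 77 nuclear subunits had an absolute log2 fold change above 1, a line that 15.3% of all rows crossed together with the threshold, and 64 of the 77 lay between 0.2 and 0.8. Among the 4778 rows within the expression range of the nuclear subunits, 8.96% crossed both. The SD of the fold change was 0.20 over the nuclear subunits, 0.66 over those 4778 rows and 1.21 over all rows. The plot of members by complex shows this spread.

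**Figure D1:**
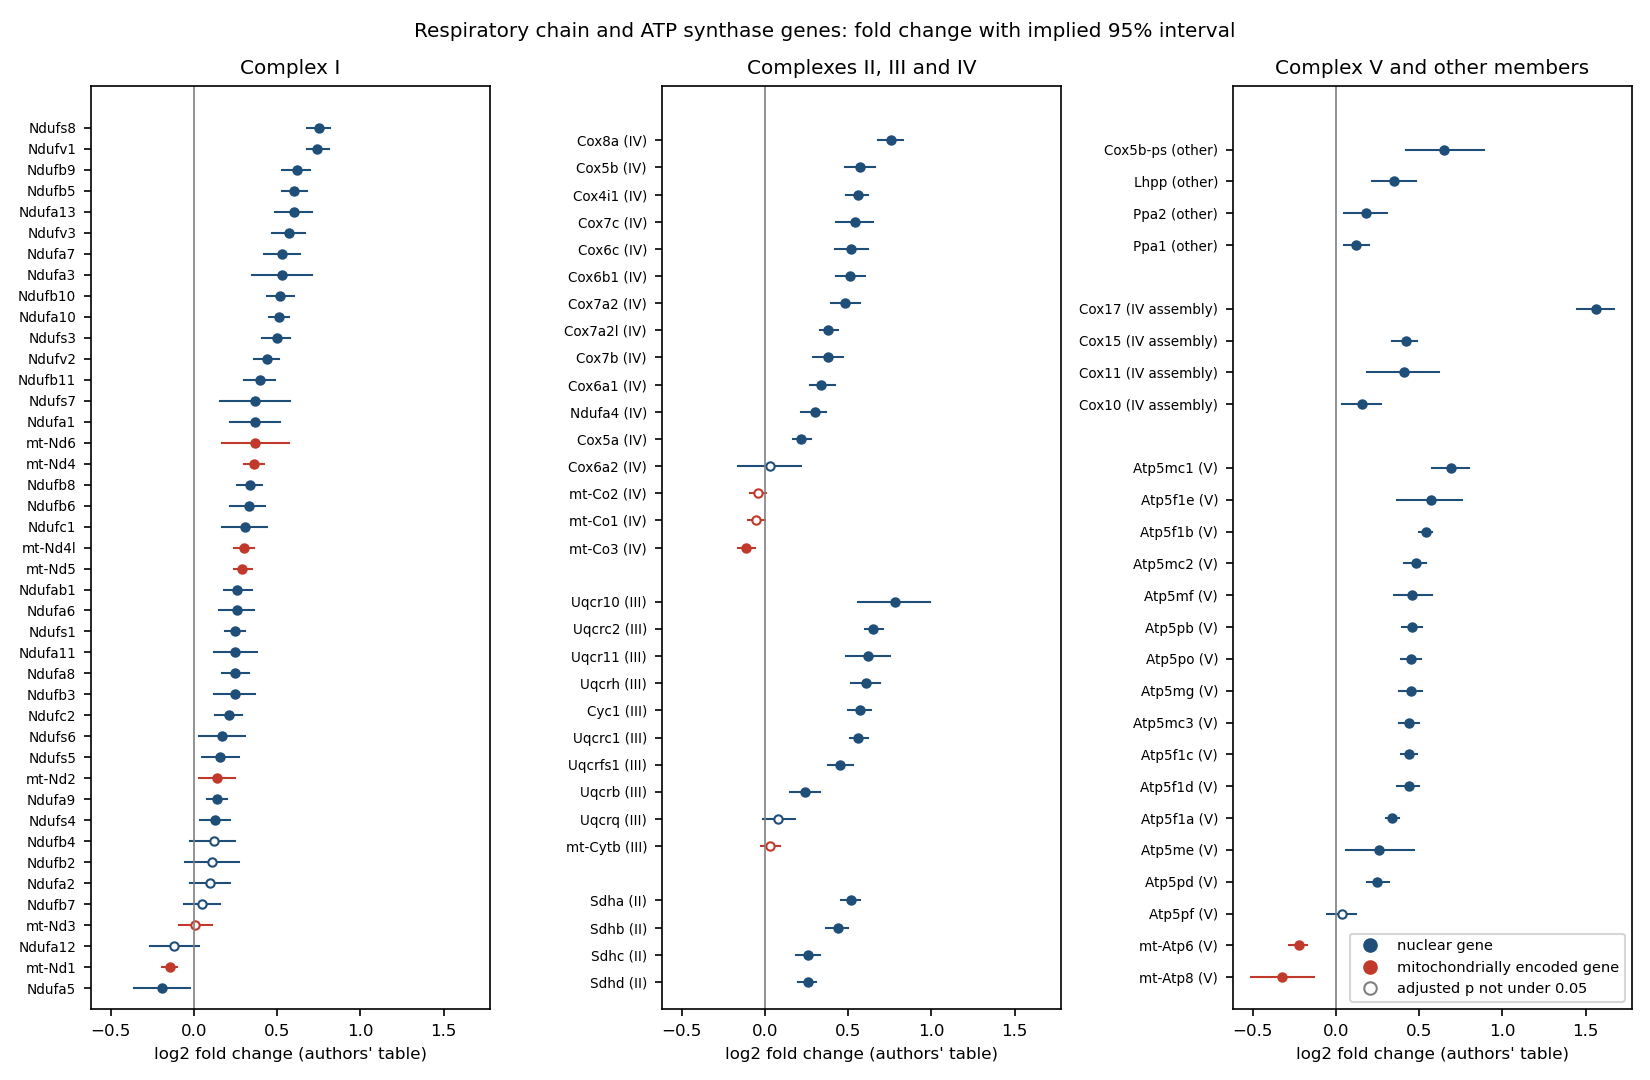
Deposited log2 fold change (x axis) of the members, 1 of which is not drawn, with the 95% interval implied by its p-value as a line, sorted within complexes (y axis). Blue points are nuclear genes, red points are mitochondrially encoded, and open points did not pass an adjusted p of 0.05. Most blue points lie between 0.2 and 0.8, and Cox17 stands at 1.56.

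Complex I has the most members. Its 36 nuclear subunits comprised 30 positive calls, 1 negative call and 5 that did not pass, with a median of 0.32. All 7 nuclear core subunits, which carry the flavin and iron-sulfur centres or bind the quinone, passed on the positive side. The highest were Ndufs8, an iron-sulfur subunit (0.75, SE 0.03, adjusted p = 8.59e-104, deposited DESeq result), and Ndufv1, which binds NADH and the flavin (0.74, SE 0.03, adjusted p = 4.22e-102). These correspond to 1.68-fold and 1.67-fold. Ndufs1, the largest iron-sulfur subunit, was the lowest of the core at 0.25 (SE 0.03), and its interval (0.19 to 0.31) did not overlap that of Ndufv1 (0.68 to 0.81).

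The 29 accessory subunits of complex I were more mixed, with 23 positive calls, 1 negative call and a median of 0.26. Ndufa5 (ENSMUSG00000023089, chromosome 6, 24518666 to 24528013, minus strand, GRCm38), a subunit of the peripheral arm, was the only nuclear member called on the negative side (-0.19, 95% interval -0.36 to -0.02, adjusted p = 0.0384), and it lost that call at an adjusted p of 0.01. The lowest positive call was Ndufs4, a subunit known for its mutation in Leigh syndrome (0.13, SE 0.05, adjusted p = 0.00582). The accessory subunits that did not pass were Ndufa12 (-0.12), Ndufb7 (0.05), Ndufa2 (0.10), Ndufb2 (0.11) and Ndufb4 (0.12). Their intervals reached at most 0.27, that of Ndufb2, so a value at the median of the nuclear subunits lay outside all 5.

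Complex II, succinate dehydrogenase, is made from nuclear genes only. All 4 of its subunits passed on the positive side. The catalytic subunits Sdha, which binds the flavin (0.52, SE 0.03), and Sdhb, which holds the iron-sulfur clusters (0.44, SE 0.03), stood above the membrane anchors Sdhc (0.26, SE 0.04) and Sdhd (0.26, SE 0.03). The intervals of the catalytic pair began at 0.37 and those of the anchors ended at 0.33.

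Complex III had the highest median of the complexes for its nuclear subunits, 0.57 over 9 genes, of which 8 passed on the positive side. Its highest value was that of Uqcr10, a small subunit (0.78, SE 0.11, adjusted p = 2.62e-12), with a wide interval of 0.56 to 0.99. The core proteins stood at 0.65 for Uqcrc2 (SE 0.03) and 0.56 for Uqcrc1 (SE 0.03). The electron-carrying subunits were close to them, with cytochrome c1 (Cyc1) at 0.57 and the Rieske iron-sulfur protein (Uqcrfs1) at 0.45. Uqcrb, a small subunit, was lowest of those that passed (0.24), and Uqcrq, another, did not pass (0.08, 95% interval -0.01 to 0.18).

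Complex IV, cytochrome c oxidase, had 12 positive calls among 13 nuclear subunits and a median of 0.48. Cox8a, one of its smallest subunits, was highest (0.76, SE 0.04, adjusted p = 5.13e-86) and Cox5b, which binds zinc, followed (0.57, SE 0.05). Cox4i1, a regulatory subunit, stood at 0.56 (SE 0.03) and Cox5a, its neighbour in the complex, at 0.22 (SE 0.03), the lowest that passed. Ndufa4, first described in complex I and counted here in complex IV, was next lowest at 0.30. Cox6a2, known as the form of heart and skeletal muscle, did not pass (0.03, 95% interval -0.16 to 0.22), while Cox6a1, the form of most other tissues, stood at 0.34 (SE 0.04). Cox6a2 had the lowest level of the nuclear subunits, 3.87 against 7.68 for Cox6a1 on the log scale of FPKM.

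Complex V had 14 positive calls among 15 nuclear subunits and a median of 0.45. In the F1 head, where ATP is made, the catalytic beta subunit Atp5f1b stood at 0.54 (SE 0.02, adjusted p = 3.8e-160) and the alpha subunit Atp5f1a at 0.34 (SE 0.02), with intervals of 0.50 to 0.58 and 0.30 to 0.38. The 3 genes of the rotating c ring, whose mature proteins are known to be the same, were all positive, at 0.69 for Atp5mc1 (SE 0.06), 0.48 for Atp5mc2 and 0.44 for Atp5mc3. Atp5mc1, the highest of complex V, had the lowest level of the c ring genes (5.83, 7.40 and 8.00 in the same order). The second highest was Atp5f1e, the epsilon subunit (0.57, SE 0.10). The lowest that passed were Atp5pd of the peripheral stalk (0.25, SE 0.03) and Atp5me of the membrane part (0.26, SE 0.10). Atp5pf, also of the stalk, did not pass (0.04, 95% interval -0.05 to 0.12). It overlaps Gabpa in the annotation and shares 9.3% of its 50-base words with it on either strand. Gabpa stood at -0.15, with a level of 4.34 against 6.78 for Atp5pf, and any part of this overlap was not tested.

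The member farthest from zero was no subunit. Cox17 (ENSMUSG00000046516, chromosome 16, 38346991 to 38352763, plus strand, GRCm38), the copper chaperone that delivers copper to complex IV assembly, had a log2 fold change of 1.56 (SE 0.06, adjusted p = 2.07e-164), or 2.94-fold, and was the only member past 2-fold. The other assembly factors among the members were also positive, at 0.42 for Cox15 and 0.16 for Cox10, which make the haem A of complex IV, and 0.41 for Cox11, a copper inserter. Cox11 shares 48.2% of its 50-base words with Tom1l1, which had a row of its own at 0.62, so the reads of these genes may not have been separable. The phosphatases stood at 0.12 (Ppa1), 0.18 (Ppa2) and 0.35 (Lhpp), and Cox5b-ps at 0.65, with 62.3% of its words shared with Cox5b.

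The mitochondrially encoded genes differed from one another along the genome. In the order of the genome, mt-Nd1 stood at -0.14 (SE 0.02, adjusted p = 7.85e-09) and mt-Nd2 at 0.14 (SE 0.05, adjusted p = 0.0154), both subunits of complex I. The catalytic subunits of complex IV, mt-Co1 (-0.05, adjusted p = 0.052) and mt-Co2 (-0.04, adjusted p = 0.163), did not pass. The complex V subunits mt-Atp8 (-0.32, SE 0.10, adjusted p = 0.00168) and mt-Atp6 (-0.22, SE 0.03, adjusted p = 2.08e-14) passed on the negative side, as did mt-Co3 of complex IV (-0.11, SE 0.03). These 3 genes follow each other on the genome.

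The next gene, mt-Nd3 of complex I, did not pass (0.01, adjusted p = 0.853). The 4 genes after it, all of complex I, passed on the positive side. They were mt-Nd4l (0.30, SE 0.03), mt-Nd4 (0.36, SE 0.03, adjusted p = 7.47e-33), mt-Nd5 (0.29, SE 0.03) and mt-Nd6 (0.37, SE 0.10), the last of which lies on the other strand. The last gene, mt-Cytb of complex III, did not pass (0.03, adjusted p = 0.234). All 4 intervals from mt-Nd4l to mt-Nd6 lay at or above 0.17 and all 3 from mt-Atp8 to mt-Co3 at or below -0.06. The runs were picked by the side of their calls, so their separation follows from that choice and is no result. Under Bonferroni over all rows mt-Nd2, mt-Nd6, mt-Atp8 and mt-Co3 lost their calls. By complex, 5 of 7 complex I genes were on the positive side past the threshold. The counts were 0 of 3 for complex IV, 0 of 2 for complex V and 0 of 1 for complex III. Of the 5 positive calls, 4 are the run from mt-Nd4l to mt-Nd6. Among all mitochondrially encoded genes 38.5% passed on the positive side and 30.8% on the negative side, against 39.3% and 38.1% of all rows. The positive share is thus near that of all rows, and a difference between complexes was not tested in groups this small. The complex I genes outside the run were mt-Nd1, mt-Nd2 and mt-Nd3. The intervals of mt-Nd1 (-0.19 to -0.10) and mt-Nd3 (-0.09 to 0.11) lay below all 4 intervals of the run. That of mt-Nd2 (0.03 to 0.25) overlapped those of mt-Nd4l (0.24 to 0.36), mt-Nd5 (0.24 to 0.35) and mt-Nd6 (0.17 to 0.57). Because the run was picked by its positive calls, the lower place of mt-Nd1 and mt-Nd3 follows from that choice too and is no result.

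**Figure D2:**
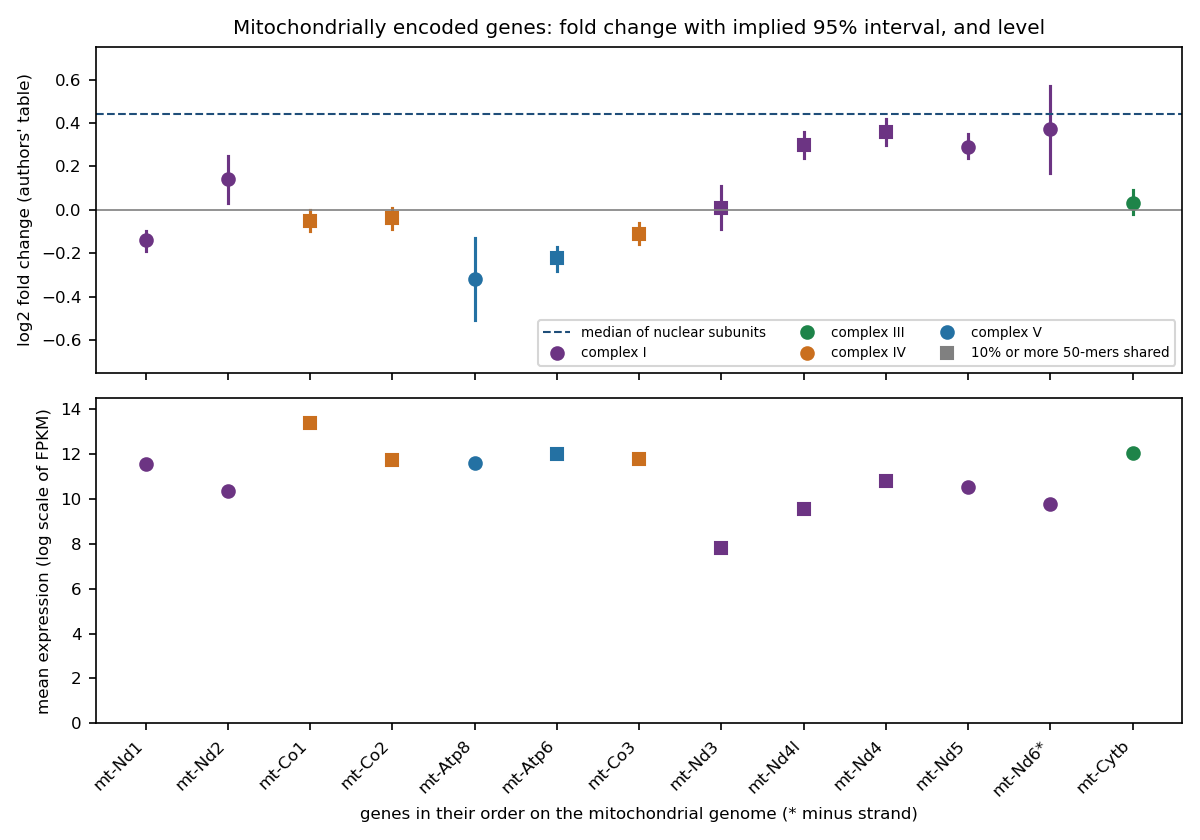
Upper panel: deposited log2 fold change with its implied 95% interval for the 13 mitochondrially encoded genes in genome order (x axis), coloured by complex, with the median of the nuclear subunits, 0.44, as a dashed line. Lower panel: mean expression on the log scale of FPKM, from 7.82 for mt-Nd3 to 13.40 for mt-Co1. Squares mark genes that share 10% or more of their 50-base words with another gene.

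Neighbouring genes of this genome overlap, which bears on how reads were assigned to them. The stretches shared by mt-Atp8 and mt-Atp6 and by mt-Nd4l and mt-Nd4 are shown because both pairs lie in the runs above. Letters are the GENCODE transcripts of GRCm38, plus strand, 5′ to 3′, with the shared bases in capitals and 30 bases of either gene on each side.
mt-Atp8 and mt-Atp6, chrM:7897-7999: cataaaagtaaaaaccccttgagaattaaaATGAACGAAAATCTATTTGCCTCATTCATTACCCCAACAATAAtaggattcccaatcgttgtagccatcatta
mt-Nd4l and mt-Nd4, chrM:10137-10203: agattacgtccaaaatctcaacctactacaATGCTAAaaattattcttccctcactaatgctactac
The first pair shares 43 bases and the second 7. In each pair both genes had the same sign. Both pairs were taken from runs picked by the side of their calls, so this follows from that choice and is no result. Whether the calls of a pair are separate observations was not tested. The genes mt-Nd5 and mt-Nd6 share 14 bases on opposite strands, and whether the authors counted by strand is not given in the sources used here.

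Many mitochondrial genes have copies in the nuclear genome, so a stretch of 50 bases can match both. In the annotation, mt-Co2 and mt-Co3 share all of their 50-base words with other genes, mt-Atp6 99.2%, mt-Nd3 98.3%, mt-Nd4l 98.0%, mt-Nd4 62.4% and mt-Co1 51.3%. None of those copies had a row in the table. Among the 6 genes that share under 10%, 3 passed on the positive side (mt-Nd2, mt-Nd5 and mt-Nd6) and 2 on the negative side (mt-Nd1 and mt-Atp8), with a median of 0.09. Nuclear members were similar with and without shared words, with medians of 0.43 over 26 and 0.42 over 59. Poly(A) selection takes up transcripts by their tails, which are short on mitochondrial transcripts and are known to be absent from human ND6. Its part in these values was not tested.

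The levels of the genomes were far apart. The median level was 11.54 for the mitochondrially encoded genes and 6.46 for the nuclear subunits on the log scale of FPKM, which counts per length, and 11 of the 13 lay above the highest nuclear member, Atp5f1b (9.61). The exceptions were mt-Nd4l (9.57) and mt-Nd3 (7.82). The order from the top was mt-Co1 (13.40), mt-Cytb (12.03), mt-Atp6 (11.98), mt-Co3 (11.79), mt-Co2 (11.74), mt-Atp8 (11.60) and mt-Nd1 (11.54), followed by the other complex I genes from mt-Nd4 (10.78) down. Without values per library, neighbours in this order cannot be compared with their spread.

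The relation of level to fold change had opposite signs in the nuclear and the mitochondrial genes. Over the 77 nuclear subunits Pearson's r was 0.40 and Spearman's rho 0.33. Over the 13 mitochondrially encoded genes they were -0.49 and -0.58, and over all 11031 rows -0.08 and 0.02. These are descriptions across genes that share the same libraries, and genes are not independent replicates. The 5 mitochondrially encoded genes called on the positive side all had levels of 10.78 or less, while the 4 called on the negative side had 11.54 or more.

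**Figure D3:**
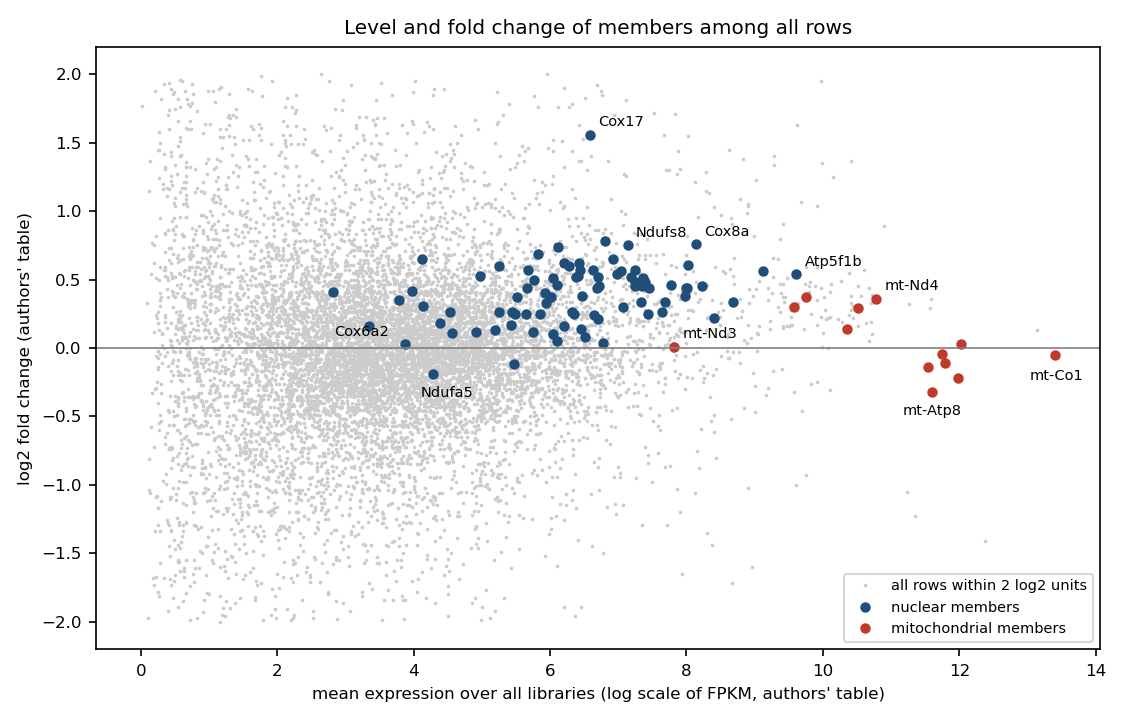
Mean expression on the log scale of FPKM (x axis) against the deposited log2 fold change (y axis), for nuclear members (blue), mitochondrially encoded members (red) and all rows within 2 log2 units (grey). Blue points lie mostly above 0 at levels up to 9.61, and the red points at the highest levels lie near or below 0.

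Factors that build, feed or regulate the complexes were also examined, and their counts stand against 39.3% of all rows on the positive side and 38.1% on the negative side. Of 16 assembly factors of complex I, 6 passed on the positive side, 5 on the negative side and 5 did not pass, which is near the shares of all rows, with a median of 0.03. The highest of them were Ecsit (0.57, SE 0.06) and Timmdc1 (0.50, SE 0.07), which take part in building the membrane arm, and the lowest Ndufaf2 (-0.54, SE 0.11) and Ndufaf7 (-0.35, SE 0.08), a chaperone and a methyltransferase. Of 28 assembly factors of complexes II to IV that are not members, 14 passed on the positive side and 0 on the negative side in the authors' DESeq result, with 1 on the negative side at an unadjusted p under 0.05 (Bcs1l, -0.15). Sdhaf1 (0.63), which helps to load iron-sulfur clusters into Sdhb, was highest there, and Sdhaf2 (0.12), which attaches the flavin to Sdha, and Cox18 (0.15), which inserts a complex IV subunit into the membrane, were the lowest that passed. Among 5 factors of complex V, Atp5if1, the inhibitor of ATP hydrolysis by the synthase, lay on the negative side (-0.49, SE 0.04, adjusted p = 1.56e-29), Tmem242 at -0.11, and Atpaf1 (0.24) and Oxa1l (0.14) on the positive side.

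Among 20 carriers between complexes and enzymes that feed them, there were 10 positive calls, 6 negative calls and 4 that did not pass, against 39.3% and 38.1% of all rows, and the median was 0.12. The highest was Coq8a, an atypical kinase needed to make ubiquinone (5.54, SE 0.21, adjusted p = 1.17e-150), and Aifm2, which reduces ubiquinone outside the chain, followed (0.89, SE 0.05). Coq8a had a level of 2.70, below the median of 3.60 over all rows. The lowest were Sqor, which passes electrons from sulfide to ubiquinone (-1.01, SE 0.06, adjusted p = 5.71e-60), and Suox, sulfite oxidase (-0.35, SE 0.11). Cytochrome c itself, Cycs, stood at 0.11 (SE 0.03). Of the subunit isoform partners, 13 of 21 had a row, and 11 of these are members counted above. The other 2 were Higd1a (0.96, SE 0.05) and Higd2a (0.11, not passing), both factors of complex IV.

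Of 30 genes that keep and transcribe the mitochondrial genome, 12 passed on the positive side, 8 on the negative side and 10 did not pass, with a median of 0.11. The positive share is near that of all rows (39.3%), so the counts are no result about this list. The highest were Hsd17b10 (1.44, with an adjusted p listed as 0) and Trmt10c (1.10, SE 0.05), both parts of the enzyme that cuts tRNAs out of mitochondrial transcripts, while its nuclease, Prorp, did not pass (0.09, SE 0.07). The lowest were Pnpt1, a nuclease that degrades mitochondrial RNA (-0.57, SE 0.04), and Slirp, which stabilises mitochondrial mRNA (-0.48, SE 0.08). Tfam, which packages and transcribes the genome, was at -0.41 (SE 0.05) and the RNA polymerase Polrmt at -0.20 (SE 0.06).

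Of 13 regulators of mitochondrial biogenesis with a row, 7 passed on the positive side, 3 on the negative side and 3 did not pass, with a median of 0.20. Myc was highest (4.81, SE 0.14, adjusted p = 1.38e-241) and Perm1 next (2.16, SE 0.10), both transcriptional regulators. Their levels were 3.49 and 1.77, against a median of 3.60 over all rows. The coactivators Ppargc1b (0.94, SE 0.08) and Pprc1 (0.71, SE 0.04) and the nuclear receptor Esrra (0.47, SE 0.04) were also positive. The lowest were the transcription factor Gabpa (-0.15, SE 0.04) and the kinase Mtor (-0.14, SE 0.04), and Nrf1, which binds promoters of many respiratory genes, did not pass (-0.05, adjusted p = 0.434).

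**Figure D4:**
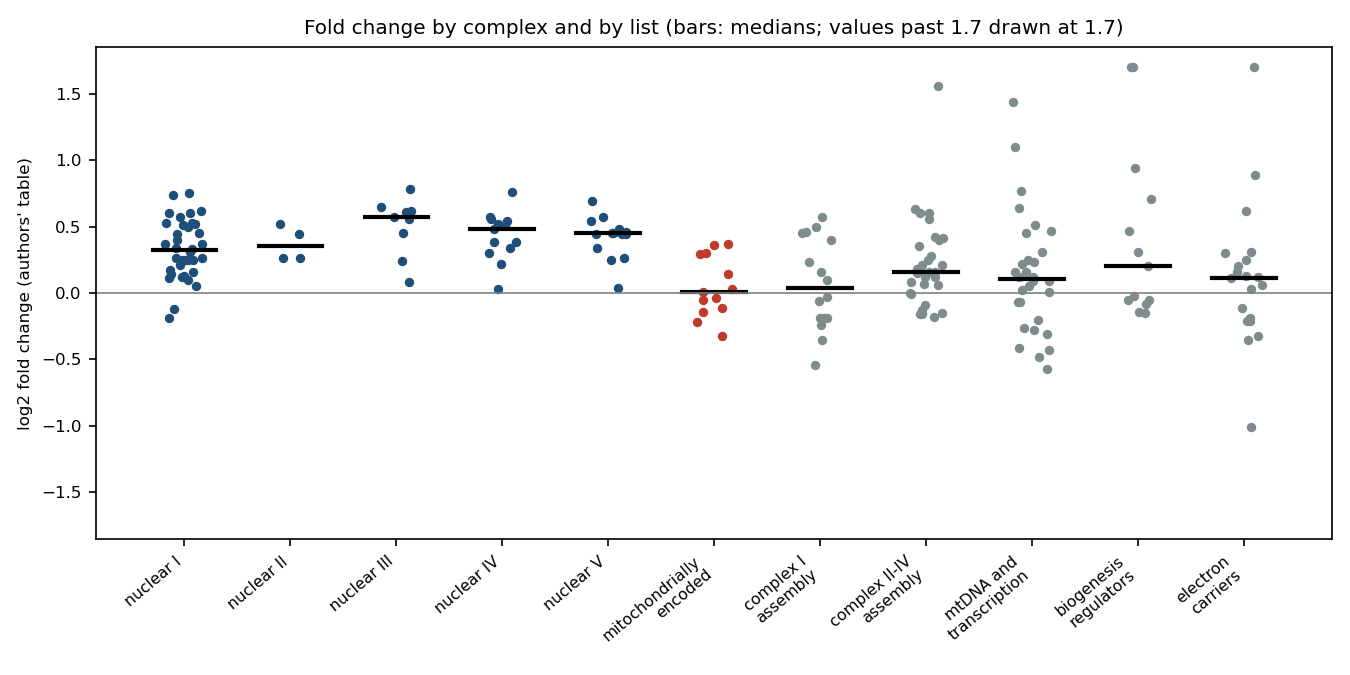
Deposited log2 fold change (y axis) of the nuclear subunits by complex, the mitochondrially encoded genes and 5 lists of related factors (x axis), 1 point a gene, with the median as a bar. The medians of the nuclear groups run from 0.32 to 0.57, and those of the other groups from 0.01 to 0.20.

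Promoters of nuclear members were searched for motifs of factors known for these genes, since most nuclear members lay on the positive side. RefSeq (GRCm38.p6) held windows of 300 bases around the start, most of it before the start, for 69 of the 85 nuclear members. Both strands were searched for exact letters, and overlapping matches were counted. The NRF1 motif GCGCANGCG was in 29.7% of the 74 windows of members and in 6.25% of all 32851. The ETS core CCGGAAG, bound by GABPA, was in 24.3% and 8.86%, the YY1 motif AAGATGGCG in 10.8% and 1.40%, and the ERR element TCAAGGTCA in 2.70% and 0.423%. The E-box CACGTG, bound by MYC, was in 10.8% and 7.15%. Member windows had a median GC of 59.0% and all windows 52.7%, a difference that the counts do not allow for.

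The fold changes of members with and without a motif overlapped throughout. The median was 0.26 for 21 members with the NRF1 motif and 0.44 for 48 without, with ranges of -0.19 to 0.62 and -0.12 to 0.78. For the ETS core the medians were 0.43 and 0.41, and for the E-box 0.46 and 0.39. Of 8 members with the YY1 motif the median was 0.16 and the highest 0.46, against a median of 0.44 for 61 without. For the ERR element the medians were 0.35 for 2 members with it and 0.42 for 67 without. These are descriptions over members, a match is not a bound site, and no test was made.

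The windows of 3 members are shown, on the strand of the gene, 5′ to 3′, with matches to these motifs in capitals. Ndufs8 is the highest of complex I and holds the ETS core. Sdhd, a membrane anchor of complex II, holds the NRF1, ETS and ERR motifs together. Ndufa5, the only nuclear member called on the negative side, holds the NRF1 motif in both of its 2 windows, of which the first listed is shown.
Ndufs8, chr19:3912725-3913024, minus strand: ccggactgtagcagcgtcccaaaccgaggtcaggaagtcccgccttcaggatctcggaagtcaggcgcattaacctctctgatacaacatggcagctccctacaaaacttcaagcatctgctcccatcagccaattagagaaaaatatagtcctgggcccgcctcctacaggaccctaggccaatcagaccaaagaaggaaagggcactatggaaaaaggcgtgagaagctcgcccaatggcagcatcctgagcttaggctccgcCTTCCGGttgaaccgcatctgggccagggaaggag
Sdhd, chr9:50603800-50604099, minus strand: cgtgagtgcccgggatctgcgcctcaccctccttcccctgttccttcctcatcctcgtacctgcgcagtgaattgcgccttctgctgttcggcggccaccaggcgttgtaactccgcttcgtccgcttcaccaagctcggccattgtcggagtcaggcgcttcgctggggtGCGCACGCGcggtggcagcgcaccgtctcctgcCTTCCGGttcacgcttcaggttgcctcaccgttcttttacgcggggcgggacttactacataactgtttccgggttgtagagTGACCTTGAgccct
Ndufa5, chr6:24527477-24527776, minus strand: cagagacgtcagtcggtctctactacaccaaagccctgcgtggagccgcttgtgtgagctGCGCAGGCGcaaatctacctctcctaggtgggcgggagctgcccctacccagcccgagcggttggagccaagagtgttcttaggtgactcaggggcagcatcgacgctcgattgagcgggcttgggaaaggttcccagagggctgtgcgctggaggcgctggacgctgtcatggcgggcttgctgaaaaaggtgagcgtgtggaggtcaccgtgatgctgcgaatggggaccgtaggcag
The NRF1 motif is also in the windows of Sdhd, at 0.26, and Uqcrc1, at 0.56. A relation of this motif to the side of a call was not tested.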

How the data were processed

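RNA sequencing of 6 samples, 3 Ctrl and 3 RANKL, was read from 1 deposited table of 11031 rows. The log2 fold change, p-value and adjusted p-value of each row come from the authors' own comparison and were used as deposited, and no test was run here. Mean expression was deposited as a log2-like scale of FPKM whose base the header does not state. The submitters' notes name DESeq and mm10, and the study's methods DESeq2. No source used here gives the aligner, the counter, the annotation or the row filter. The 12 columns of single libraries could be matched to no sample and were not used, and no model of counts was fitted.

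The adjusted p was recomputed by Benjamini-Hochberg from the deposited p-values, and 0 rows differed by more than 1e-06 in relative terms. Rows passed at an adjusted p under 0.05. The SE is the absolute fold change divided by the z of the deposited p, which assumes a 2-sided Wald test. Simulated data checked only the arithmetic, because their p-values were made by that same test. They cannot show whether the deposited p-values meet the assumption. The SE is not given where p is listed as 0, in 280 rows and no member. Words of 50 bases, taken every 5 bases of the GENCODE M21 transcripts, gave the share of each member found in other genes on either strand. Python 3.11.15 and pandas 2.3.3 were used.

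The members, gene lists and motifs were chosen with earlier results of these data known. Genes named were all mitochondrially encoded members, 12 subunits of complexes I to V that the rule lists by name, the 2 highest and 2 lowest of each complex and list past the threshold, and all members that did not pass. The values of 1 member that the rule names are not reported here. Others (for example Prorp, Tfam, Nrf1, Cycs and Sdhd) were chosen after their values were seen.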

Additional observations from a re-analysis of the deposited data

How the results depend on the processing

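The positive calls among nuclear members stayed within 1.5 times under every alternative run. The 1 negative call among them, Ndufa5, was lost, leaving 0, at an adjusted p of 0.01, with an absolute log2 fold change above 0.26 required, and under Bonferroni over all rows. Among the 13 mitochondrially encoded members, the 5 positive calls became 3 under Bonferroni, and the 4 negative calls became 2 under Bonferroni and 1 with a fold change above 0.26 required. Without members that share 10% or more of their 50-base words, chosen after seeing the data, 3 of 6 were positive and 2 of 6 negative. That alternative leaves fewer genes. The gap between the nuclear and the mitochondrially encoded median, 0.41, ranged from 0.33 to 0.43. By gene, 5 calls were lost at 0.01 and 18 under Bonferroni, and none reversed. Centring on the median of all rows, which was 0.00, changed no call. Calls rest on the deposited adjusted p, which centring leaves as it is, and a gap between medians does not move either. Centring is therefore no check of these results.

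No paired analysis was possible because the single-library columns carry no name from the sample labels. DESeq2 size factors, leaving out replicates and the replicate block were not run for the same reason. Depth is unknown, and the intervals rest on the deposited p-values.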
